A study of Mus musculus with 6 samples.

Results

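The 9 genes described here are skeletal muscle lineage factors, taken by name from the 55471 genes of the count table: Pax3, Pax7, Myf5, Myod1, Myog, Six4, Mef2a, Mef2c and Des. They were measured in a cultured cell line from a mouse undifferentiated pleomorphic sarcoma (UPS), a soft-tissue tumour whose cells show no clear line of differentiation, and the question was which muscle factors the line transcribes and whether their levels differed after loss of Setd1a. The samples were 3 libraries of wild-type control cells and 3 libraries labelled as Setd1a knockout, numbered 1 to 3 in each group. All 6 were named metastatic cells by their labels and were grown under the same serum-containing conditions. No source used here gives the strain, the way the knockout was made, whether it is 1 clone or a pool, or whether replicates were separate cultures. The p-values therefore cover the spread between these 6 libraries only, and that spread may be technical. A further tag in the titles divides the libraries as the genotype does, and the 2 cannot be told apart.

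Skeletal muscle is built by a short chain of transcription factors. Pax3 and Pax7 mark muscle progenitors, and Pax7 also marks the satellite cells of adult muscle. Myf5 and Myod1 are basic helix-loop-helix (bHLH) factors that commit a cell to the muscle lineage, and Myog is the bHLH factor that starts differentiation. Six4, a homeobox factor, acts upstream of these genes together with related homeobox factors and their Eya cofactors. Mef2a and Mef2c are MADS box factors that work with the bHLH proteins on muscle promoters, and both also act outside muscle. Des encodes desmin, the intermediate filament of muscle cells. Some soft-tissue sarcomas, rhabdomyosarcoma above all, keep part of this programme.

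Library totals lay between 17749533 and 18272622 counts, 108309198 in all. Setd1a, which encodes a histone methyltransferase of the COMPASS complexes, had control levels of 71.0, 75.3 and 73.5 CPM (reads scaled to library size) and knockout levels of 53.2, 68.7 and 56.2 CPM. Every knockout library lay below every control, but most of the transcript level remained (0.811-fold; adjusted p = 0.426 in edgeR's quasi-likelihood test). Gene counts cannot show a disrupted exon, and overlapping genes cover 52.3% of the gene's exonic sequence, so its level is uncertain.

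The factors that define the muscle lineage by themselves were not detectable at this depth. Pax7, Myf5, Myod1 and Myog had 0 reads in each of the 6 libraries. A count of 0 over all libraries allows a level of up to 0.0277 CPM per gene, taking 3 reads of the total as the limit and covering counting error only. Pax3 had 1 read in all, in control library 1, with an exact Poisson 95% interval of 0.0253 to 5.57 reads. Pax7 lies on chromosome 4 at 139737062 to 139833528 (GRCm38, minus strand), Pax3 on chromosome 1 at 78101267 to 78197134 (minus), Myf5 on chromosome 10 at 107482908 to 107486134 (minus), Myod1 on chromosome 7 at 46376474 to 46379099 (plus) and Myog on chromosome 1 at 134289989 to 134292548 (plus). None of these 5 shares exonic bases with another gene of the annotation. No knockout library held a read of any of the 5.

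**Figure D1:**
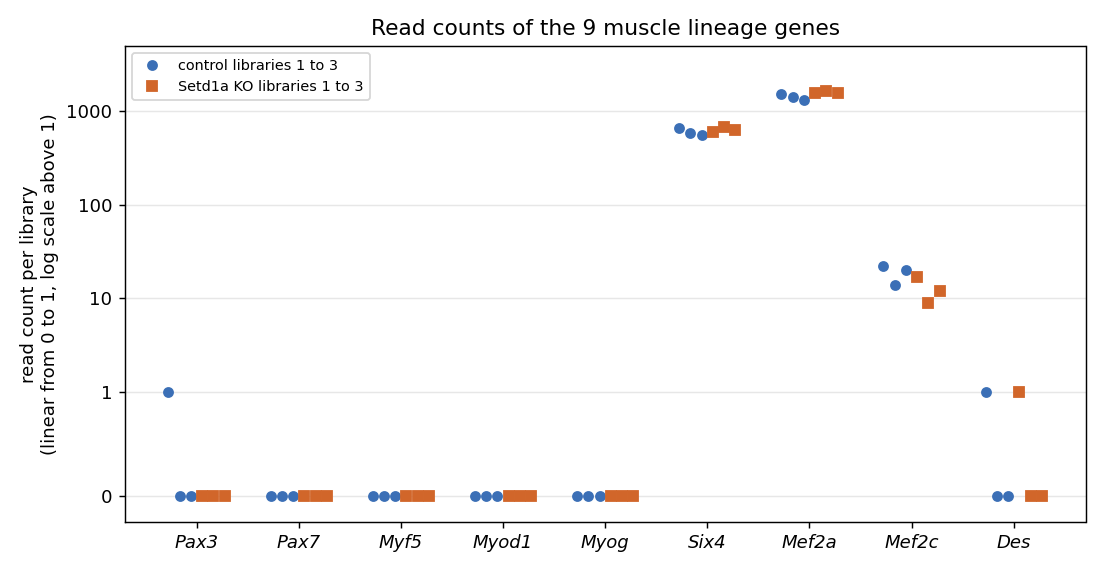
Read counts of the 9 muscle lineage genes in each library (x axis, gene; y axis, reads per library, linear from 0 to 1 and logarithmic above), with control libraries as circles and Setd1a knockout libraries as squares. Pax7, Myf5, Myod1 and Myog sit at 0 throughout, Pax3 and Des at 0 or 1, Mef2c between 9 and 22, Six4 between 558 and 675, and Mef2a between 1333 and 1640.

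Myf6, the fourth myogenic bHLH gene, had 2 reads over all libraries, and Msc, a bHLH repressor of muscle genes, had 7. Their E protein partners, which dimerise with the myogenic factors and also act in many other tissues, were well expressed: per kilobase of merged exons, Tcf3 stood at 49.1 CPM per kb, Tcf12 at 13.6 and Tcf4 at 7.38 (means of 6 libraries). Among the Id proteins, which bind E proteins and keep them from such partners, Id3 stood at 86.3 CPM per kb and Id1 at 64.3. Id2 stood at 10.3 and Id4 at 0.828. Id3 and Id1 lay above all 3 E proteins per kilobase, but below them in CPM. Over all libraries, Tcf12 had 211, Tcf4 202, Tcf3 198, Id3 155 and Id1 74.6 CPM, so the order depends on the merged lengths. Twist1, a mesenchymal bHLH factor that restrains myogenic bHLH factors, stood at 53.8 CPM per kb.

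Desmin transcripts were also at the edge of detection. Des (chromosome 1, 75360329 to 75368579, plus strand) had 1 read in control library 1, 1 in knockout library 1 and 0 in the other 4, an exact Poisson 95% interval of 0.242 to 7.22 reads over all libraries. Of its exonic bases 5.86% are shared with the antisense gene Gm15179. Other intermediate filament genes ranged widely. Gfap, a glial filament gene, had 12 reads in all and Nefh, the heavy neurofilament gene, 29, both under the low-count filter. Vim, which encodes the filament protein of mesenchymal cells, stood at 1220 CPM per kb, above 99.8% of the genes tested, while Nes, found in immature muscle and neural cells, stood at 23.5 CPM per kb. Synm, which encodes the desmin partner synemin, was at 0.161 CPM per kb.

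The promoters of Myog and Des are shown because both genes are textbook targets of the factors in this set, and Myog carries letters bound by several of them side by side. The stretches are from RefSeq (GRCm38.p6), 5′ to 3′ on the plus strand, and end before the first base that RefSeq or GENCODE counts as transcribed. Capitals mark matches, on either strand, to 3 motifs: the E-box CANNTG, bound by bHLH dimers, the MEF3 letters TCAGGTTTC, bound by Six4, and CTANNNNTA, a loose form of the MEF2 site.
Myog, chr1:134289754-134289988: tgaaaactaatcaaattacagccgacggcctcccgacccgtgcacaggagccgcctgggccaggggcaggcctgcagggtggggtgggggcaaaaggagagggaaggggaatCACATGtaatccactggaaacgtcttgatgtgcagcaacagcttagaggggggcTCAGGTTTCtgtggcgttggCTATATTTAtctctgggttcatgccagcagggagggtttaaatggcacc
Des, chr1:75360042-75360291: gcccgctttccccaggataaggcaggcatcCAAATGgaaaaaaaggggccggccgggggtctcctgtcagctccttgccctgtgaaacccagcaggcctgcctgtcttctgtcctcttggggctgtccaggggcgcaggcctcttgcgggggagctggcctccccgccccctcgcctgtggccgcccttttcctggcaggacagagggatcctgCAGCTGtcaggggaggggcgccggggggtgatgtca
In Myog the capitals are an E-box at -138, the MEF3 letters at -84 and the loose MEF2 letters at -64, each counted from the RefSeq start site to the first base of the match. A further E-box, CAGTTG at -12, lies past the end of the printed stretch. In Des they are E-boxes at -220 and -36, the second with the letters CAGCTG. Among 32851 RefSeq promoters, the 250 bases before the start held an E-box in 66.2%, CTANNNNTA in 19.0%, CAGCTG in 13.0% and TCAGGTTTC in 0.387%. An E-box by itself is therefore common, whereas the MEF3 letters are rare. The MEF3 letters were also found, on the strand opposite to the gene, 99 bases before 1 of the 2 RefSeq starts of Six4. That match lies inside the annotated gene, downstream of the other RefSeq start. These matches are descriptions of letters and not of binding. Both promoters belonged to genes with at most 2 reads, while genes for both kinds of protein that bind the MEF3 and MEF2 letters were transcribed.

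Six4 was expressed, at a moderate level. The gene (chromosome 12, 73099609 to 73113456, minus strand) had 37.0, 32.9 and 31.3 CPM in control libraries 1, 2 and 3, and 32.8, 37.5 and 34.6 CPM in knockout libraries 1, 2 and 3. The groups overlapped over nearly their whole range. The means were 33.7 ± 2.92 for control and 34.96 ± 2.35 CPM for knockout (SD, n = 3), 1.04-fold with a 95% interval of 0.864 to 1.24 (edgeR, adjusted p = 0.958). A change within those bounds could not be told from none (exact permutation test, two-sided, p = 0.6).

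Per kilobase, Six4 was not the leading gene of its family. Six2 stood at 14.9 CPM per kb, against 3.16 for Six4 and 2.83 for Six5. Six2 lay at 4.1 to 5.74 times Six4 per kilobase in the 6 libraries. In CPM over all libraries the 2 were close, at 34.3 for Six4 and 31.5 for Six2. The lead of Six2 therefore rests on the merged length, which is 10.86 kb for Six4. Six4 and Six5 were neighbours whose ranges overlapped, 2.88 to 3.45 against 2.07 to 3.80 CPM per kb. Among the Eya cofactors, which these homeobox proteins need to activate their targets, Eya3 stood at 17.1 CPM per kb, Eya4 at 3.89 and Eya1 at 1.02. Eya2 had 12 reads in all. Genes of this upstream layer were thus transcribed, with Six2 and Eya3 the highest per kilobase of those named.

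Mef2a was the highest of the 9 genes. It lies on chromosome 7 at 67231163 to 67372858 (minus strand) and shares 2.06% of its exonic bases with Lysmd4 on the other strand. The controls had 85.1, 79.2 and 74.7 CPM and the knockouts 87.2, 91.0 and 85.6 CPM. All 3 knockout libraries lay above all 3 controls, but the lowest knockout and the highest control were almost level. The means were 79.7 ± 5.21 and 87.9 ± 2.80 CPM (SD, n = 3), 1.10-fold with a 95% interval of 0.947 to 1.29 (edgeR, adjusted p = 0.725). A permutation test (exact, two-sided) gave p = 0.1, and 3 against 3 libraries allow no smaller value. Of the 13044 genes tested, 7.49% also had all knockout libraries above all controls. Within pairs of the same replicate number, the knockout was 1.02, 1.15 and 1.15 times the control.

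Mef2c, the family member most tied to muscle and heart development, was near the floor. The gene (chromosome 13, 83504034 to 83667080, plus strand) had 22, 14 and 20 reads in the controls and 17, 9 and 12 in the knockouts. The groups overlapped, since knockout library 1 lay above control library 2. The means were 1.04 ± 0.229 and 0.6985 ± 0.221 CPM (SD, n = 3), 0.674-fold with a 95% interval of 0.392 to 1.16 (edgeR, adjusted p = 0.672; exact two-sided permutation p = 0.2). In each pair the knockout was below the control, at 0.769, 0.639 and 0.589 of it. With 94 reads in all, a change of the observed size could not be told from counting and replicate error.

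**Figure D2:**
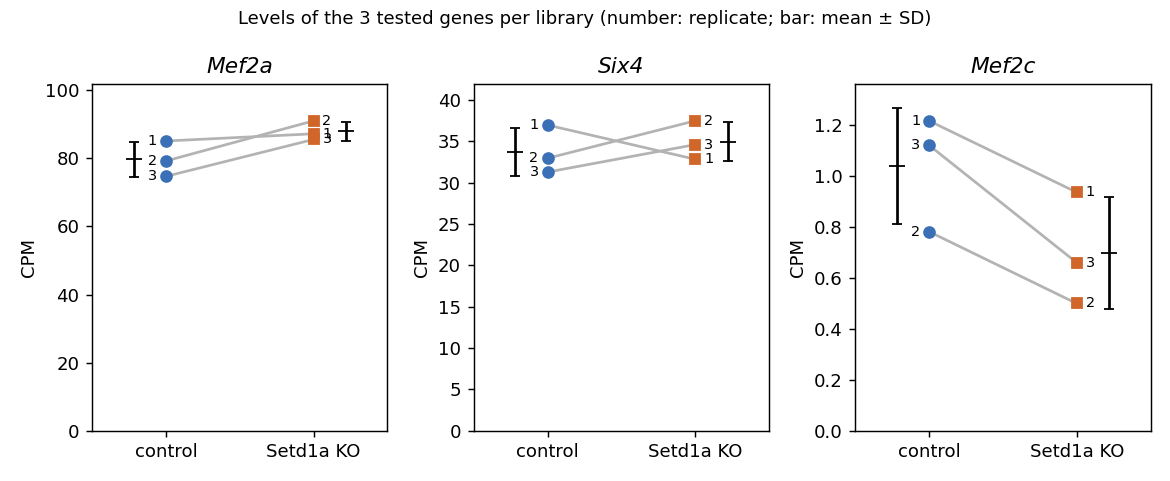
Levels of Mef2a, Six4 and Mef2c in CPM (y axis, from 0) in the control and Setd1a knockout libraries (x axis), with libraries of the same replicate number joined and the mean ± SD beside each group. Mef2a lies between 74.7 and 91.0 CPM with the knockouts above the controls, Six4 overlaps between groups, and Mef2c lies at about 1 CPM, lower in the knockout of each pair.

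The MEF2 family as a whole was led by another member. Mef2d stood at 26.3 CPM per kb, 3.81 to 5.52 times Mef2a in the 6 libraries, and Mef2a at 5.71 CPM per kb, next to the median of the genes tested (5.57). Mef2c stood at 0.0553 CPM per kb, and Mef2b, at 29 reads in all, did not pass the low-count filter. Mef2a exceeded Six4 in every library, by 1.70 to 1.97 times, and Six4 exceeded Mef2c by 40.4 to 109 times. The order among the 9 genes was therefore Mef2a, Six4, Mef2c and then the rest. Those were Des and Pax3, at 2 reads and 1 read, and the 4 genes with none. Their counts do not differ beyond counting error, so no order among them is given. Per kilobase, Mef2a stood at least 308-fold above the limit set by 0 reads for Myog and at least 383-fold above that for Myod1; for Six4 these bounds were 171 and 212. Lengths are merged over all annotated isoforms. The level of a gene with a long merged length, such as Mef2a or Six4, is therefore understated where shorter isoforms prevail.

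**Figure D3:**
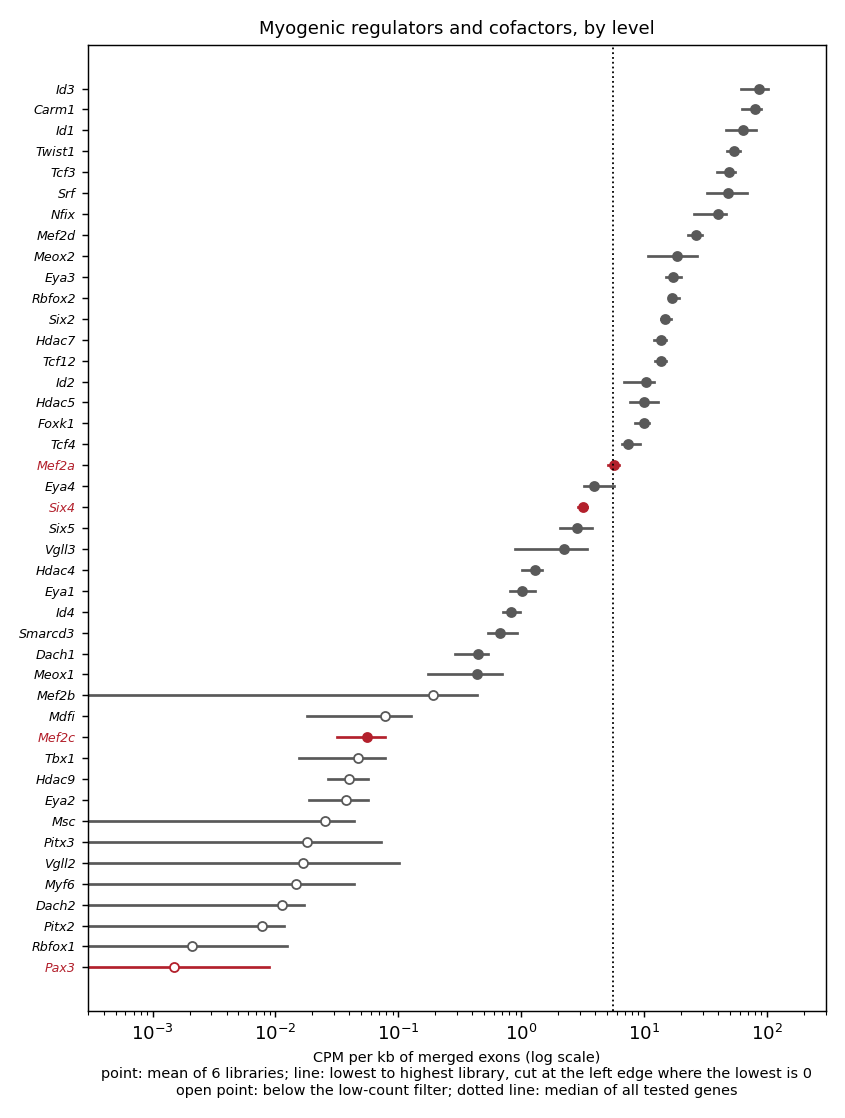
Levels of the genes with at least 1 read among 49 myogenic regulators and cofactors, in CPM per kb of merged exons (x axis, log scale; points are means of 6 libraries, lines run from the lowest to the highest library, open points did not pass the low-count filter, the 9 genes are in red). Mef2a lies at the median of all tested genes (dotted line), Six4 below it, and Mef2c and Pax3 far to the left, while Id3, Twist1, Tcf3 and Mef2d lie to the right.

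Between knockout and control, none of the 9 genes was called. Of the 9, 3 passed the low-count filter (Six4, Mef2a and Mef2c), and 0 of the 3 passed edgeR's test at an adjusted p under 0.05, where 0.0% of all 13044 genes passed. With edgeR's p left unadjusted the count below 0.05 was also 0 of 3, against 10.0% of all genes tested (718 higher, 5.5%, and 588 lower, 4.51%). DESeq2 called 93 of the 13044 genes higher and 40 lower, but neither Six4 nor Mef2a (DESeq2 adjusted p = 0.999 and 0.909). It gave Mef2c no adjusted p, so Mef2c could not be called there. In the edgeR test that pairs libraries by replicate number, 2.28% of all genes were called (1.43% higher and 0.851% lower) and again 0 of the 3 (adjusted p = 0.84 for Six4, 0.348 for Mef2a and 0.35 for Mef2c).

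In the wider list of 49 myogenic regulators and cofactors, which holds 8 of the 9 genes, 30 were tested and 0 were called without pairing. An unadjusted p under 0.05 was found for 2 higher and 4 lower, against 5.5% and 4.51% of all genes tested. The median log2 change of the 30 was -0.03, next to 0.00066 over all genes tested, with 13 above and 17 below 0. With pairing 0 rose and 1 fell, against 1.43% and 0.851% of all genes. The 1 was Meox2, a homeobox gene of the somite and limb muscle precursors. Meox2 had 63.7, 56.5 and 41.1 CPM in control libraries and 37.9, 37.5 and 25.5 CPM in knockout libraries, so the groups did not overlap. Its level fell to 0.625 of the control (paired edgeR adjusted p = 0.0184; 0.297 without pairing), and the paired call was lost without pair 3 (adjusted p = 0.0611), where the test called no gene of the table, but not without pair 1 or 2.

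Others near the top of the list by unadjusted p did not pass either test. Eya1, the Eya cofactor of early myogenesis, had a mean of 6.54 ± 0.216 CPM in control and 9.42 ± 1.16 CPM in knockout libraries (SD, n = 3; edgeR adjusted p = 0.328, paired 0.0729). Six5 averaged 10.1 ± 1.20 and 6.97 ± 0.905 CPM (adjusted p = 0.346, paired 0.0597). Hdac5, a class IIa histone deacetylase that represses MEF2 proteins, averaged 99.2 ± 13.4 and 76.5 ± 8.34 CPM (adjusted p = 0.370, paired 0.0531). In each of these 3 the groups did not overlap; of the 30 tested genes 3 were higher and 6 lower without overlap, against 7.49% and 7.77% of all genes tested. The highest genes of the list per kilobase, Id3, Carm1, Id1 and Twist1, had adjusted p-values between 0.519 and 0.971.

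**Figure D4:**
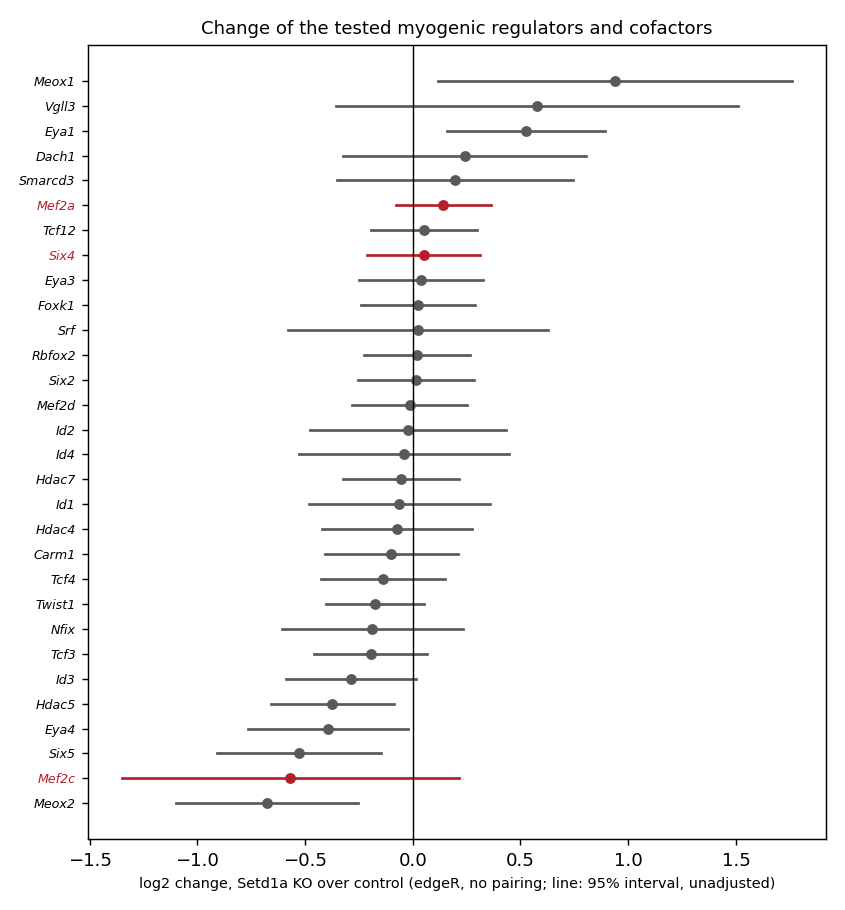
Log2 change of Setd1a knockout over control for the 30 tested myogenic regulators and cofactors (x axis; points are edgeR estimates without pairing, lines unadjusted 95% intervals, genes of the 9 in red). Mef2a and Six4 lie near 0 with narrow intervals, Mef2c lies at -0.57 with a wide one, and Meox2 lies lowest.

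Most genes of differentiated muscle were low. Of 50 such genes, 37 did not pass the low-count filter and 12 had no read in any library, among them Ckm (muscle creatine kinase), Myh7 and Myh4 (myosin heavy chains), Myl1, Actc1 and the fusion genes Mymk and Mymx. Acta1, which encodes the skeletal muscle actin, had the most reads of the genes under the filter, 72 in all. In a single library 23 to 30 of the 50 genes had a read in the controls and 26 to 31 in the knockouts. The highest per kilobase were Eno3, a glycolytic enolase of muscle, at 36.98 CPM per kb, Tpm2, a tropomyosin, at 25.4, Chrnb1 at 7.54 and Chrna1 at 3.33, the last 2 being subunits of the muscle acetylcholine receptor. Chrna1 had a mean of 12.1 ± 1.69 CPM in control and 17.1 ± 3.87 CPM in knockout libraries (SD, n = 3; edgeR adjusted p = 0.412, paired 0.0695). Ldb3, a Z-disc protein, had 6, 13 and 7 reads in control and 18, 20 and 15 in knockout libraries, a log2 change of 1.0 (edgeR adjusted p = 0.419, paired 0.161), and its groups did not overlap. Of the 13 tested, 0 were called in either test, and 2 higher and 0 lower had an unadjusted p under 0.05 (5.5% and 4.51% of all genes tested). Without overlap 4 were higher and 1 lower, against 7.49% and 7.77%. The median log2 change of the 13 was 0.40, with 9 above 0 and 4 below. Genes near the filter can pass it through the group where they are higher, which bears on this median and on the counts without overlap. Ldb3 had 26 reads in the controls and 53 in the knockouts, and Myom1 (log2 change 0.765) 29 and 50. Myl4 (-0.478) went the other way, with 36 and 26. Of the 13, 9 had at most 163 reads in all, and the median does not cover the 37 genes under the filter. Of those 37, not tested for their low counts, Myh1, another myosin heavy chain, had 3 reads in the controls and 18 in the knockouts, Ttn (titin) 4 and 16, Neb (nebulin) 1 and 11, and Myh3, the embryonic myosin, 0 and 3. In CPM each knockout library lay above each control for these 4. For Neb, however, control library 1 and knockout library 2 both had 1 read. These 4 were picked after their values were seen, and no share over all genes under the filter is at hand. Others of the 37 had fewer reads in the knockouts, among them Chrnd (7 in the controls and 3 in the knockouts), Tnni1 (4 and 1), Tnnc2 (6 and 4) and Jsrp1 (3 and 0).

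Satellite cell markers were mixed. Cd34, Dag1, Sdc4 and Met, which many mesenchymal cells also express, stood between 21.1 and 53.5 CPM per kb. Vcam1, Ncam1 and Itga7, further genes of the list, were also expressed, at 6.38, 2.865 and 1.88 CPM per kb. Calcr, which marks quiescent satellite cells, had no read, and Cdh15 (M-cadherin), a surface marker of myogenic cells, stood at 0.642 CPM per kb. Of the 22 markers, 7 did not pass the low-count filter. Of 22 markers 15 were tested and 0 called without pairing, with a median log2 change of -0.03. An unadjusted p under 0.05 was found for 2 higher and 1 lower, against 5.5% and 4.51% of all genes tested. With pairing 1 rose and 0 fell, against 1.43% and 0.851% of all genes. The 1 was Hes1, a target of Notch signalling that holds progenitors back from differentiation. It had 6.36, 5.42 and 5.997 CPM in control and 10.9, 8.16 and 8.41 CPM in knockout libraries, 1.54-fold (paired edgeR adjusted p = 0.0494; 0.305 without pairing). This call was lost without any 1 of the pairs (adjusted p = 0.0593, 0.144 and 0.0903). Spry1, an inhibitor of growth factor signalling, averaged 7.08 ± 0.784 and 5.095 ± 0.259 CPM (SD, n = 3; edgeR adjusted p = 0.408, paired 0.132).

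Among 17 genes of intermediate filaments and their partners beside desmin, 14 were tested, 0 were called without pairing (unadjusted p under 0.05 for 2 higher and 0 lower, against 5.5% and 4.51% of all genes), and 2 rose and 1 fell with pairing, against 1.43% and 0.851% of all genes. Ina, a neuronal filament gene, had 0.775, 1.17 and 0.673 CPM in control and 3.86, 2.997 and 3.08 CPM in knockout libraries. Every knockout library was well above every control, 3.78-fold in the paired fit (adjusted p = 0.0184; 0.134 without pairing). Cryab, a small heat shock protein that chaperones desmin in muscle, rose 1.27-fold from 156.7 ± 14.3 to 199.0 ± 17.4 CPM (SD, n = 3; paired edgeR adjusted p = 0.0391; 0.352 without pairing). Nefl, the light neurofilament gene, fell to 0.779 of its control level with overlapping groups (paired edgeR adjusted p = 0.0422; 0.671 without pairing). The list's median log2 change without pairing was 0.24. Without pair 3 all 3 paired calls were lost (adjusted p = 0.0627 for Ina, 0.0654 for Cryab and 0.0777 for Nefl), and those of Cryab and Nefl also without pair 2 (0.206 and 0.223).

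**Figure D5:**
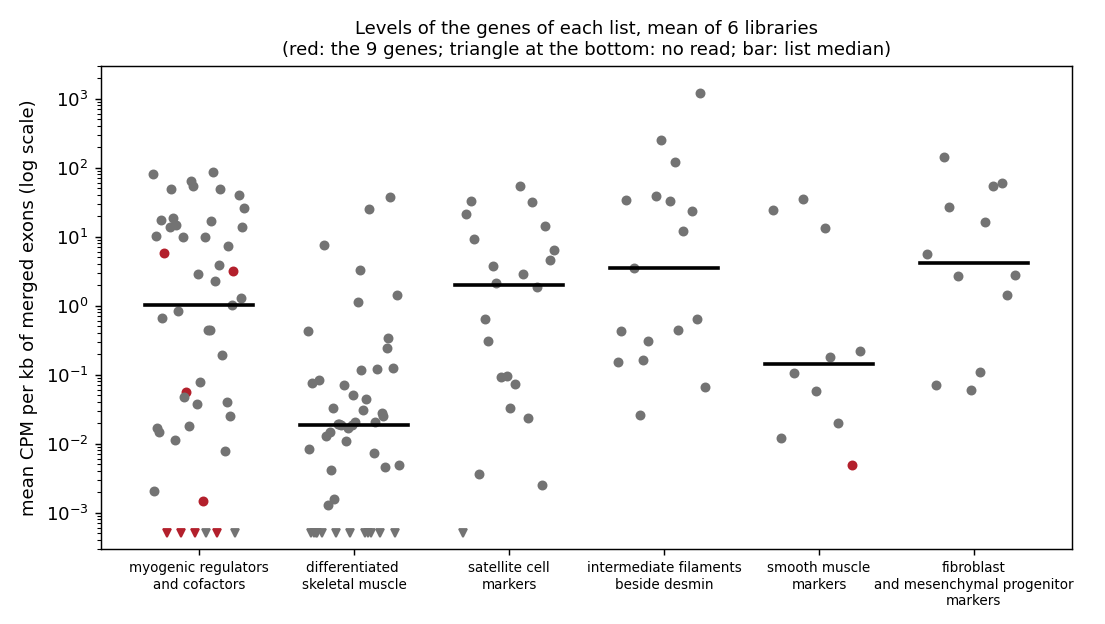
Mean level over 6 libraries of each gene of 6 lists, in CPM per kb of merged exons (y axis, log scale; x axis, list), with the 9 genes in red, triangles at the bottom for genes with no read and bars at list medians. The differentiated muscle list has its median at 0.0188 CPM per kb, against 1.02 for regulators and cofactors and 4.15 for fibroblast and mesenchymal progenitor markers.

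Markers of mesenchymal cells spanned a wide range. Fibroblast and mesenchymal progenitor markers had a median of 4.15 CPM per kb over all 12. The 10 that were tested had a median of 10.8, above the 5.57 of all genes tested. The highest were S100a4 at 141 CPM per kb, Thy1 at 59.5, Ly6a at 53.6 and Col3a1 at 26.8. The receptors Pdgfrb and Pdgfra stood at 2.73 and 2.66 CPM per kb and Dcn, a matrix proteoglycan, at 1.41, while Fap, with 37 reads, and Lum, with 19, were under the filter. The 12 markers summed to 788 to 1136 CPM in control and 645 to 907 CPM in knockout libraries. With pairing 0 rose and 1 fell, against 1.43% and 0.851% of all genes. The 1 was Postn, a matrix protein, at 104 reads in all (paired edgeR adjusted p = 0.0363, 0.441 without pairing). Its groups overlapped, with 47, 27 and 6 reads in control and 12, 10 and 2 in knockout libraries. Its paired edgeR adjusted p was 0.0538 and 0.0668 without pairs 2 and 3, and without pair 1 it was not tested. Of the smooth muscle markers, Smtn (34.6 CPM per kb), Acta2 (24.4) and Tagln (13.2), which myofibroblasts share, were expressed, while Myh11, Cnn1 and Myocd were under the filter; 4 of 10 were tested and 0 called in either test. Adipocyte markers summed to 10.9 to 17.1 CPM over the 6 libraries, epithelial markers, mostly Krt18, to 46.2 to 86.5 CPM and macrophage markers, mostly Cd68, to 7.36 to 15.2 CPM. Of the markers in these 3 lists and the next 2, 10 were tested and 0 called in either test. Neural crest and endothelial markers summed to under 5 CPM in each library. In these 2 lists the summed ranges of the groups did not overlap, by small gaps, while in the other lists they did. For neural crest (5 markers, 2 tested, Foxd3 at 0) they were 1.625 to 4.32 CPM in control and 1.33 to 1.597 CPM in knockout libraries. For endothelium (4 markers, 1 tested, none at 0) they were 0.996 to 2.298 and 2.498 to 3.25 CPM. Of single genes, 15.3% of all tested had no overlap in either direction, but no such share is at hand for sums over low-count markers. In the neural crest list, S100b had 51 reads in control library 1 and 15 in each of the other controls. The part of neural crest and endothelial traces in the values of Mef2c, which such cells also express, was not tested.

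The genes whose profiles over the 6 libraries lay closest to each tested factor were found by the root-mean-square difference of centred log2 CPM. For Mef2a they were Supt20 and Nmt2, at 0.0249 and 0.0282, against a median of 0.208 over all genes. For Six4 they were Tmem251 and Efemp2, at 0.0337 and 0.034. For Mef2c they were Mex3b and Calr3, at 0.0704 and 0.102, against a median of 0.428. With 6 libraries and 13044 genes, close neighbours of a nearly flat profile, such as those of Mef2a and Six4, are plentiful. The Mef2c profile was less flat, with a root-mean-square deviation of 0.387 from its mean, against 0.0938 for Mef2a and 0.0939 for Six4. Mef2c had only 9 to 22 reads per library, against 558 to 675 for Six4, so counting error weighs more on its profile and its neighbours. The share of counting error in that deviation was not tested.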

How the data were processed

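RNA of 6 libraries was sequenced. The authors deposited raw counts of reads per Ensembl gene, without normalization, in 1 table. STAR, featureCounts and DESeq with build mm10 are named per the submitters' processing notes; no source used here gives their roles or versions, the annotation release, the strand setting or the rule for multiply mapped reads, so antisense or overlapping genes cannot be told apart. Groups and replicate numbers came from the sample titles. Symbols, coordinates and merged exon lengths came from GENCODE M21 (GRCm38, the assembly mm10 names), which matched 55144 of 55471 identifiers; promoter letters came from RefSeq, which had entries for 7 of the 9 genes.

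Counts were tested in R 4.3.3 with edgeR 4.0.16 (TMM, edgeR's low-count filter by group, two-sided quasi-likelihood test without pairing, Benjamini-Hochberg adjustment over 13044 genes, threshold 0.05). CPM use the TMM-adjusted library size; log2 CPM had a prior count of 2. Alternatives were DESeq2 1.42.0, limma-voom 3.58.1, other scalings, no filter, the replicate number as a block, and leaving out libraries. Libraries of the same number deviated together from their group means (correlations 0.15, 0.46 and 0.38, all above the limit of 0.1). From the data alone, the numbers were therefore treated as pairs in the alternative with a block. The main test stayed without pairing. The steps were tested on simulated data. The 9 genes and the 11 gene lists were chosen with earlier results of these data known. A gene of the regulator list is not reported here and is not in its counts. Named beside the 9 and Setd1a were, per list, up to 4 genes by unadjusted p and 4 by level per kilobase. The 2 genes closest in profile to each tested factor were also named. Family members, further markers of the lists, genes called with pairing and genes at or near 0 were added after their values were seen.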

Additional observations from a re-analysis of the deposited data

How the results depend on the processing

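The log2 changes of Mef2a and Mef2c kept their direction and were not called in any alternative run, at 0.0972 to 0.198 for Mef2a and -0.826 to -0.369 for Mef2c. Six4 lay so near 0 that its sign turned, at -0.00061 without control replicate 3 and -0.0034 in the paired test without replicate 3; leaving out 1 library gave -0.00061 to 0.121, and its highest value was 0.166, in the paired test without replicate 1. No setting called any of the 3; DESeq2 gave Mef2c no adjusted p. Over all genes, the main test called 0 higher and 0 lower. DESeq2 called 93 and 40, edgeR without a filter 62 and 12, and edgeR with the replicate block 187 and 111. Leaving out 1 library gave 0 to 30 higher and 0 to 1 lower, all of them without knockout replicate 1. Leaving out 1 pair in the blocked test gave 0 to 507 higher and 0 to 207 lower, 140 and 54 without pair 2, and 0 and 0 without pair 3. Pairing changed no call of the 9 genes. Other scalings and limma-voom called 0 and 0 (718 and 588 at an unadjusted p under 0.05 in the main test). Depth limits Mef2c and the 6 genes under the filter: 1 read is about 0.055 CPM in a library.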
